A study of Mus musculus with 30 samples.

Results

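The genes described here serve the folding, translocation and export of proteins in the endoplasmic reticulum (ER), with the regulators Xbp1 and Atf6 among them. The list is named for dependence on XBP1, and the name does not say that each member depends on it. The list holds 40 genes and was chosen with earlier results of these data known. A member was followed through the probe sets that carry its symbol alone, and the gene was read from the one with the highest mean signal. By that rule 39 of the 40 members were found among 12394 genes, and Sec61g was not. All 39 also passed the filter on low signals.

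The arrays were hybridised with RNA from primary cultures of the mouse telencephalon, which gives rise to the cerebral cortex and the basal ganglia. Cells came from embryos at embryonic day 12.5. Cells of 6 Xbp1 -/- embryos (the knockout) were pooled, as were cells of 4 Xbp1 +/+ embryos (the wild type), all from matings of Xbp1 +/- mice. Each pool was spread over 15 dishes at low density in serum-free Neurobasal medium with B27. Brain-derived neurotrophic factor (BDNF), a neurotrophin that acts through the TrkB receptor, was given at 100 ng/ml on day 3 in vitro. Lysis of 5 untreated (basal) dishes and of 5 dishes after 24 h of treatment took place on day 4 in each genotype, and lysis of 5 dishes after 48 h of treatment on day 5. At 48 h BDNF and time in culture therefore differed together, and with 1 pool per genotype the genotype and the pool cannot be told apart. Replicates are dishes of 1 pool, so p-values measure the spread between dishes.

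When unfolded proteins gather in the ER, the membrane sensor IRE1 splices the Xbp1 mRNA, and the spliced form encodes an active transcription factor. A second sensor, ATF6, is cut in the Golgi and its freed part also enters the nucleus. Both factors raise chaperones, disulfide isomerases, the translocation channel and the machinery that retrieves misfolded proteins for degradation, which secretory cells such as plasma cells and pancreatic cells need in large amounts.

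Both factors are known to act through short promoter elements, so the promoters of the members were searched for 3 of them. The ER stress response element (ERSE) was spelled CCAAT, 9 bases of any kind and CCACG, the second element (ERSE-II) ATTGG, 1 base of any kind and CCACG, and the unfolded protein response element (UPRE) TGACGTGG, each on both strands. ERSE and ERSE-II end in the same letters, and the UPRE holds their reverse complement, so matches of these motifs can overlap. Windows of RefSeq on the mouse build GRCm38.p6 ran from 250 bases before to 50 bases after a start of a gene. They were at hand for 31 of the 40 members, with 34 windows because a gene can have more than 1 start. ERSE was found in 8 of these 31 members (25.8%) and in 0.137% of all 27025 genes with a window. ERSE-II was found in 2 members (6.45%, against 0.0444% of all genes) and UPRE in 1 (3.23%, against 0.714%). In all, 11 members (35.5%) held at least 1 of the 3, against 0.884% of all genes. A match describes the letters and is not evidence of a bound site.

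The stretches below are given because they show the elements searched for in members that later differ in outcome. They read 5′ to 3′ on the strand of the gene, with the fixed letters of the element in capitals, on GRCm38.p6. Hspa5, Pdia6 and Syvn1 did not pass the test between genotypes. Hsp90b1 and Sec24d were higher in the knockout and Dnajc3 lower. The stretch of Hspa5, which encodes the main ER chaperone BiP, lies on the plus strand at chr2:34772000-34772068. That of Pdia6, a disulfide isomerase, lies on the plus strand at chr12:17266466-17266534. Syvn1, the ubiquitin ligase HRD1, has its stretch on the plus strand at chr19:6046507-6046575. The stretch of Dnajc3, a co-chaperone of BiP, lies on the plus strand at chr14:118937802-118937870. Hsp90b1, the ER form of HSP90, holds 2 matches on opposite strands in a stretch of the minus strand at chr10:86705508-86705681. Sec24d, a cargo-binding subunit of the COPII coat, holds the only UPRE match, on the plus strand at chr3:123267445-123267495. Its window, chr3:123267246-123267545, lies downstream of the outermost start of the gene at 123264801. The match thus belongs to another start, inside the gene.
Hspa5 (ERSE): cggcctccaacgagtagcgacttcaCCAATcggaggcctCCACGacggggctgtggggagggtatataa
Pdia6 (ERSE): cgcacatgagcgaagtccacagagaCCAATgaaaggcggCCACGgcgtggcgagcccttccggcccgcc
Syvn1 (ERSE): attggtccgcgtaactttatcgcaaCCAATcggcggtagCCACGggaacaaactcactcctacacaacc
Dnajc3 (ERSE): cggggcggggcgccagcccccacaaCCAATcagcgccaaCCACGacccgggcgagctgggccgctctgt
Hsp90b1 (ERSE on both strands): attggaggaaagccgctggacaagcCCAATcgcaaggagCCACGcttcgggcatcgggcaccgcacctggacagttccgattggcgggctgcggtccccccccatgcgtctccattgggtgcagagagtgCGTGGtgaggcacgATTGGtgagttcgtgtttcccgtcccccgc
Sec24d (UPRE): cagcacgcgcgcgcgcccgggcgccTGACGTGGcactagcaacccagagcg

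Signals are given as log2 of the signal divided by the median of the array, so that 0 is the array median and a difference of 1 is a doubling. Array medians before this division ranged from 81.9 to 138 units. The Gapdh 3'/5' signal ratio, which reads RNA integrity and labelling, was 2.86 ± 0.10 in wild-type basal dishes, 2.83 ± 0.15 at 24 h and 2.47 ± 0.09 at 48 h (SD, n = 5). Knockout dishes gave 2.73 ± 0.10, 2.80 ± 0.19 and 2.39 ± 0.21. Of 12 neuronal markers 11 were above the filter, and over the mean of the 3 times 1 of these was higher and 6 were lower in the knockout, with a median of -0.12. Their summed signal, in multiples of the array median, was 296 to 335 in wild-type and 282 to 312 in knockout basal dishes. Of the 5 astrocyte markers tested, 1 was higher and 3 were lower in the knockout, of 5 microglial markers 3 were higher and 1 was lower, of 3 oligodendrocyte markers 2 were lower, and of 3 erythroid markers 1 was higher.

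The targeted gene was examined first, with every probe set that carries its symbol. Xbp1 lies on chr11:5520641-5525993 of GRCm38.p6. The signal of Xbp1 was not lower in the dishes labelled knockout with any of its 4 probe sets at an adjusted p under 0.05. Neither the region deleted from Xbp1 nor the position of each probe set is given in the labels, so the array cannot check the genotype. In the brightest probe set, 1437223_s_at, wild-type basal dishes read 4.37, 4.47, 4.44, 4.46 and 4.40 and knockout basal dishes 4.53, 4.65, 4.68, 4.70 and 4.70. The basal groups did not overlap, and the knockout was higher by 0.22 ± 0.06 (log2, SE; limma, adjusted p = 0.00498). At 24 h and 48 h the differences of 0.07 and 0.10 did not pass. These 2 calls depended on the scaling: quantile normalization gave 0.18 (adjusted p = 0.00075) and 0.16 (adjusted p = 0.00225) and 75th percentile scaling 0.12 (adjusted p = 0.0452) and 0.13 (adjusted p = 0.0317). Over the mean of the 3 times the knockout was higher by 0.13 (adjusted p = 0.0018).

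The probe set 1420011_s_at differed most. It read 1.52, 1.57, 1.96, 1.78 and 1.88 in wild-type basal dishes and 2.75, 2.87, 2.83, 2.88 and 2.80 in knockout basal dishes. No knockout dish at any time fell to the level of a wild-type dish, whose highest value was 2.07 at 48 h against a lowest knockout value of 2.63 at 24 h. In a fit over 12236 probe sets, of which 47.4% passed in the mean of the 3 times, the knockout exceeded the wild type with this probe set by 1.0 ± 0.06 (SE), or 2.00-fold (adjusted p = 6.99e-16). The differences were 1.09 at basal, 1.05 at 24 h and 0.85 at 48 h. The 2 remaining probe sets, 1420886_a_at and 1420012_at, did not pass at any time. Under quantile normalization 1420886_a_at was higher in the knockout at basal (0.21, adjusted p = 0.0139) and over the mean of the 3 times (0.13, adjusted p = 0.00655), and under 75th percentile scaling at basal (0.19, adjusted p = 0.0411). For 1420012_at the signal was near the array median, and its 30 dishes ranged from -1.02 to 0.29.

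**Figure D1:**
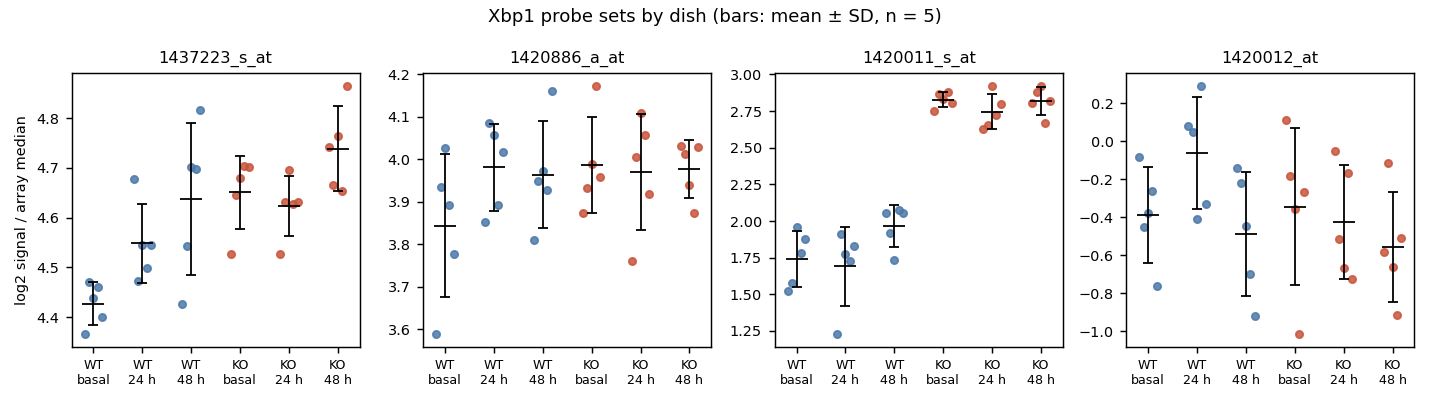
Signals of the 4 Xbp1 probe sets by dish (y axis, log2 signal over array median, scaled for each panel) in the 6 groups, with 5 dishes each; bars are mean ± SD. The knockout dishes of 1420011_s_at lie between 2.63 and 2.92, above all wild-type dishes, while the groups of the 2 probe sets that did not pass with median scaling overlap.

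Between genotypes the members moved in both directions. Over the mean of the 3 times, 25 of the 39 members passed the test (64.1%), 11 higher and 14 lower in the knockout, where 53.2% of all 7436 tested genes passed (13.4% higher and 39.8% lower). The co-chaperone genes Dnajb9 and Sdf2l1 and the translocon gene Sec61b were the members with the largest falls, of 0.36, 0.39 and 0.28. The COPII gene Sec24d, the disulfide isomerase genes Pdia3 and Pdia5 and the cargo receptor gene Lman1 were the largest rises, of 0.42, 0.38, 0.36 and 0.37. The median difference was -0.02 for the members and -0.09 for all tested genes. Hspa5, which the unfolded protein response is often read from, differed by 0.02 ± 0.03 (SE, adjusted p = 0.647).

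At single times fewer members passed. In basal dishes 7 were higher and 4 lower in the knockout, beside 27.9% of all genes in either direction (9.2% higher and 18.7% lower). At 24 h 5 were higher and 7 lower, beside 26.2% of all genes (8.43% higher and 17.8% lower). At 48 h 4 were higher and 4 lower, beside 24.1% (9.68% and 14.4%). With median scaling the share of members called in either direction, 11, 12 and 8 of 39 (28.2%, 30.8% and 20.5%), was thus near the background. Under quantile normalization 17, 11 and 13 of 39 were called, beside 25%, 20% and 21.3% of all genes, so this closeness depended on the scaling. 4 members passed at all 3 times, namely Sec61b, Lman1, Pdia3 and Sec24d. 4 passed at 2 times, 11 at 1 time and 20 at none. The sign was negative at all 3 times for 13 members, positive at all 3 for 13 and mixed for 13.

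How many members counted as higher or lower depended on the scaling of the arrays. Over the mean of the 3 times the split of 11 higher and 14 lower became 16 and 7 under quantile normalization, 13 and 7 under 75th percentile scaling and 12 and 3 without any scaling. All genes called were 43.1%, 44.1% and 23% in these fits. Over all called genes the share that was higher in the knockout went from 25.2% to 40.3%, 37.9% and 66.1%. In basal dishes the split of 7 and 4 became 14 and 3, 12 and 2, and 6 and 0. All genes called were 25%, 24.4% and 11.3%, and 46.7%, 46.8% and 73.5% of them were higher. At 24 h the split of 5 and 7 became 7 and 4, 6 and 4, and 6 and 0. All genes called were 20%, 21.5% and 11.8%, and 51.4%, 47.4% and 83.4% of them were higher. At 48 h the split of 4 and 4 became 10 and 3, 9 and 3, and 2 and 2. All genes called were 21.3%, 22.3% and 11.8%, and 53.1%, 50% and 65.5% of them were higher. Over the mean of the 3 times 11 members kept direction and call in each of the 40 alternatives run, arrays left out included. These 11 were Dnajb9, Sdf2l1 and Sec61b among the lower and Hsp90b1, Lman1, Pdia3, Pdia5, Sec24d, Sec31a, Sel1l and Xbp1 among the higher. At single times the calls that held in every alternative were 6 of 11 at basal (Hsp90b1, Lman1, Pdia3, Pdia5, Sec24d and Xbp1), 3 of 12 at 24 h (Lman1, Pdia5 and Sec24d) and 2 of 8 at 48 h (Sec24d and Sec61b).

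**Figure D2:**
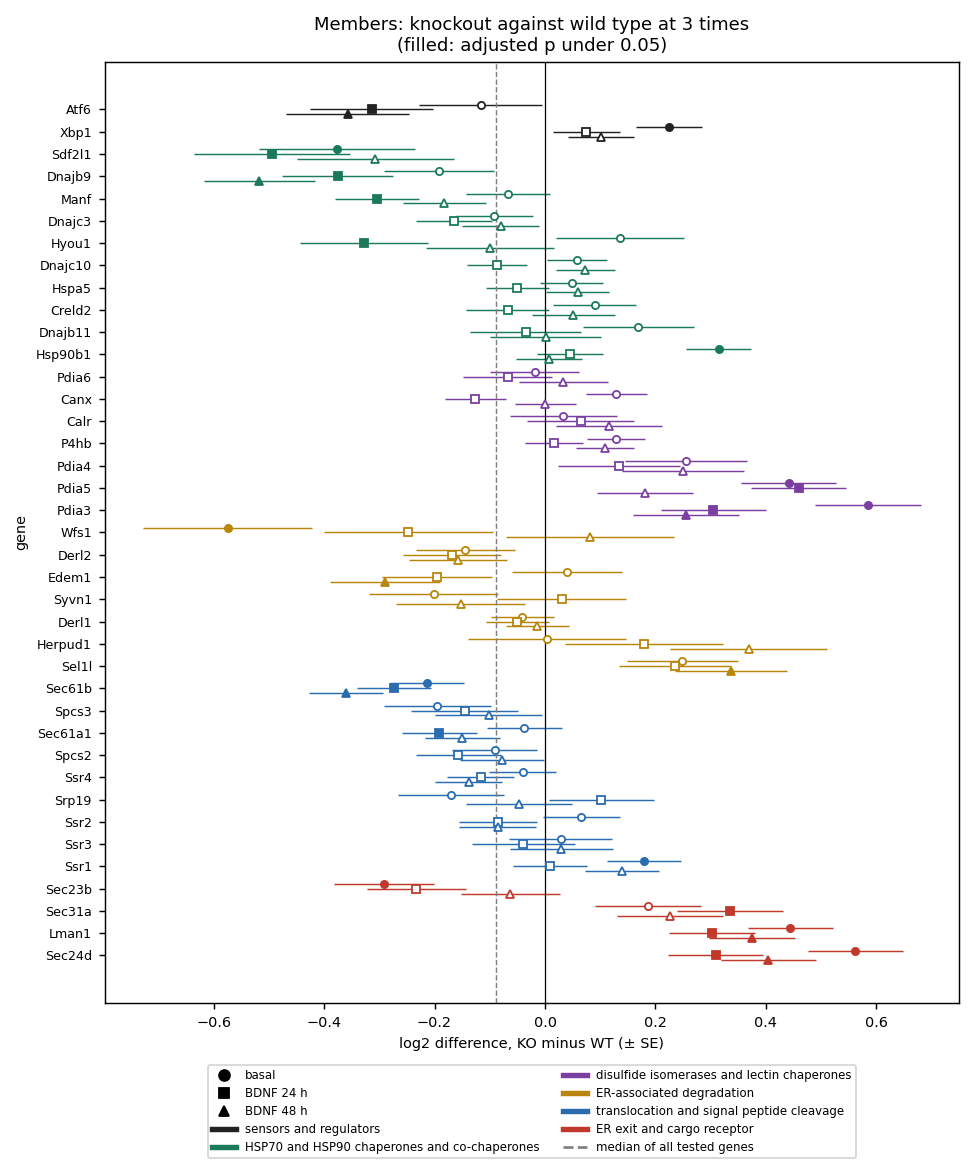
Difference of knockout minus wild type (log2, ± SE) for the members at basal, 24 h and 48 h. Within each class the members are sorted by their mean over the 3 times. The dashed line is the median of all tested genes over that mean. At basal, 24 h and 48 h Sec24d lies at 0.56, 0.31 and 0.40 and Sdf2l1 at -0.38, -0.49 and -0.31. Hspa5 lies at 0.05, -0.05 and 0.06.

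Markers of other cell types also differed between the cultures. Vascular and meningeal markers were higher in the knockout for 8 of 8 tested, of 13 on the array, with a median difference of 0.97. Their summed signal, in multiples of the array median, was 138 to 153 in wild-type basal dishes and 231 to 281 in knockout basal dishes. It came from genes of fibroblast and mural cells such as Col1a2 and Col3a1, while the endothelial marker Pecam1 was at the floor on 28 of 30 arrays and Cdh5 on 17. Of 3 tested choroid plexus markers 2 were lower and 1, Otx2, was higher. The summed signal of that list was 140 to 157 in wild-type basal dishes and 7.01 to 46.7 in knockout basal dishes. Telencephalon markers were lower for 5 of 6, with a median of -0.66, and progenitor markers were higher for 3 and lower for 6 of 10. In bulk RNA, fewer cells of a type and less RNA per cell cannot be told apart. The part of these cells in the members' differences was not tested.

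**Figure D3:**
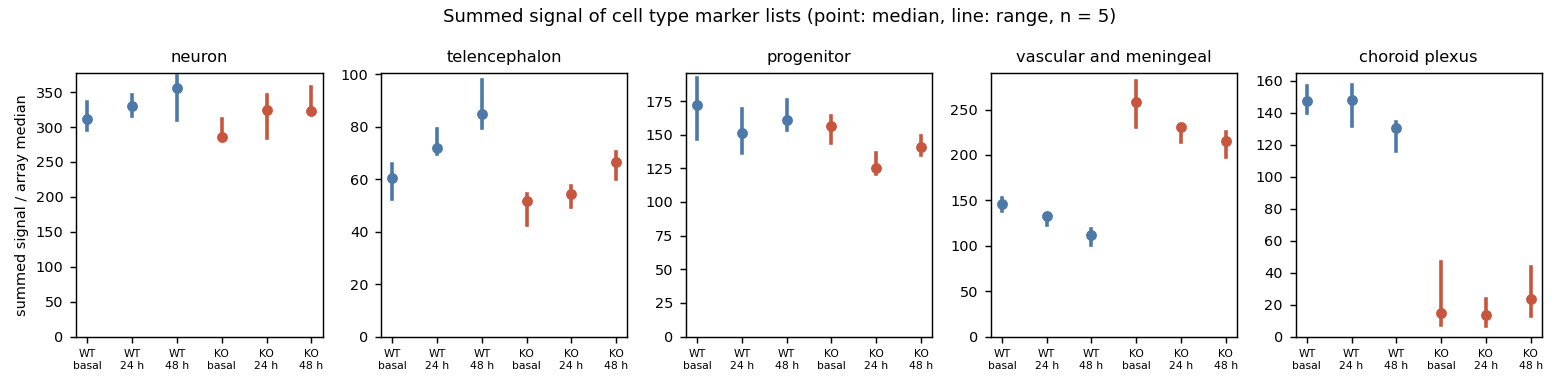
Summed signal of 5 marker lists (y axis, multiples of the array median) in the 6 groups; points are medians and lines the range of 5 dishes. Vascular and meningeal markers lie at 231 to 281 in knockout basal dishes against 138 to 153 in wild-type basal dishes, and choroid plexus markers at 7.01 to 46.7 against 140 to 157.

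Among the regulators, Atf6, the gene of the second sensor, was lower in the knockout by 0.26 ± 0.06 (SE, limma, adjusted p = 0.00099) over the mean of the 3 times. Its wild-type dishes at 48 h read 0.74, 0.57, 1.01, 0.71 and 0.61 and its knockout dishes 0.23, 0.36, 0.16, 0.67 and 0.45. The difference was -0.12 at basal, which did not pass, -0.31 at 24 h (adjusted p = 0.035) and -0.36 at 48 h (adjusted p = 0.0169), and the groups overlapped. The 24 h call ended without wild-type 24 h replicate 1, 3 or 4 or knockout 24 h replicate 1, 3 or 4, with values of -0.30 to -0.24. The 48 h call ended without wild-type 48 h replicate 3 or knockout 48 h replicate 1 or 3, with values of -0.32 to -0.29.

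Of the 10 members in the class of HSP70 and HSP90 chaperones and their co-chaperones and partners, 1 was higher and 4 were lower over the mean of the 3 times. The share called was 50%, beside 53.2% of all tested genes (13.4% higher and 39.8% lower). Dnajb9 encodes ERdj4, a co-chaperone that brings misfolded proteins to BiP and is a known target of spliced XBP1. Its gene lies on chr12:44205897-44210068. Dnajb9 in wild-type dishes read 3.30, 3.37, 3.41, 3.41 and 3.25 at basal, 3.45, 3.28, 3.32, 3.31 and 3.26 at 24 h, and 3.58, 3.50, 4.03, 3.78 and 3.63 at 48 h. Knockout dishes read 2.82, 3.23, 3.29, 3.49 and 2.95 at basal, 3.01, 2.97, 3.03, 2.68 and 3.07 at 24 h, and 3.15, 3.11, 3.43, 3.09 and 3.14 at 48 h. The genotypes overlapped at basal and were apart at 24 h and 48 h. The difference was -0.19 ± 0.10 at basal (SE, adjusted p = 0.154), -0.38 ± 0.10 at 24 h (adjusted p = 0.00518) and -0.52 ± 0.10 at 48 h (adjusted p = 0.000158). At 48 h the knockout level was thus 1.43-fold lower. Without scaling the 24 h call of Dnajb9 ended (-0.21, adjusted p = 0.456). With 48 h replicates 1 and 2 alone its 48 h call ended (-0.40, adjusted p = 0.0714).

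Sdf2l1, an ER-resident partner of BiP complexes on chr16:17130138-17132383, had signals near the array median. In wild-type dishes it read 0.10, -0.30, 0.38, 0.43 and 0.16 at basal and 0.62, 0.18, 0.26, 0.65 and 0.51 at 24 h. In knockout dishes it read -0.06, -0.14, -0.22, -0.44 and -0.26 at basal and 0.06, -0.12, 0.11, 0.01 and -0.30 at 24 h. Only the 24 h groups of these were apart. The knockout was lower by 0.38 at basal (adjusted p = 0.0452), by 0.49 at 24 h (adjusted p = 0.00921) and by 0.31 at 48 h, which did not pass (adjusted p = 0.116). The basal call ended without any 1 of 8 arrays (wild-type basal replicates 1, 3, 4 and 5 and knockout basal replicates 2 to 5), with values of -0.40 to -0.31. Without scaling the basal and the 24 h calls of Sdf2l1 ended (-0.28, adjusted p = 0.288, and -0.33, adjusted p = 0.167).

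Manf encodes an ER-retained and secreted protein that binds BiP. At 24 h it read 4.38, 4.43, 4.42, 4.26 and 4.29 in wild-type and 3.81, 4.14, 4.17, 4.11 and 4.03 in knockout dishes, which did not overlap. The knockout was lower by 0.30 ± 0.08 at that time (SE, adjusted p = 0.0027) and by 0.18 over the mean of the 3 times (adjusted p = 0.000686), while the basal difference of -0.07 did not pass. Without scaling both calls of Manf ended (-0.14, adjusted p = 0.621, and -0.09, adjusted p = 0.429). Hyou1, a nucleotide exchange factor of BiP, was lower in the knockout at 24 h, by 0.33 (adjusted p = 0.0348), and differed by -0.10 over the mean of the 3 times (adjusted p = 0.222). Its call at 24 h ended without wild-type 24 h replicate 3 or 4 or knockout 24 h replicate 2, 3 or 4, with values of -0.33 to -0.21, and under quantile normalization and 75th percentile scaling (-0.27 and -0.28). Another tested probe set of Hyou1 was lower in the knockout by 0.19 over the mean of the 3 times, in the fit over probe sets. Dnajc3 was lower by 0.11 over the mean of the 3 times (adjusted p = 0.0192).

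Hsp90b1, the gene of GRP94, was the chaperone that was higher. Wild-type basal dishes read 4.76, 4.88, 4.95, 4.77 and 4.84 and knockout basal dishes 5.13, 5.22, 5.03, 5.18 and 5.21, with no overlap. The basal difference was 0.31 ± 0.06 (SE, adjusted p = 0.000113), and at 24 h and 48 h it was 0.05 and 0.01. Hspa5 in basal dishes read 5.93, 6.00, 6.19, 6.16 and 5.95 in the wild type and 5.97, 6.10, 6.17, 6.12 and 6.12 in the knockout. The knockout range lay inside that of the wild type, and Hspa5 passed at no time. A second, dimmer probe set of Hspa5 was higher in the knockout by 0.23 in the fit over probe sets. Dnajb11, Dnajc10 and Creld2 did not pass over the mean of the 3 times either, but both other tested probe sets of Dnajc10 were higher in the knockout.

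Disulfide isomerases and lectin chaperones form and check disulfide bonds and hold glycoproteins during folding. Of these 7 members 4 were higher and none lower over the mean of the 3 times, namely Pdia3, Pdia5, Pdia4 and P4hb. The share called was 57.1%, beside 53.2% of all tested genes (13.4% higher and 39.8% lower). Calr, Canx and Pdia6 differed by 0.07, 0.0011 and -0.02 and did not pass, although 1 of the 2 other tested probe sets of Canx was higher in the knockout. Pdia3 encodes ERp57, the isomerase that works with calnexin and calreticulin, and lies on chr2:121413902-121438687. Wild-type dishes of Pdia3 read 2.90, 3.41, 3.52, 3.41 and 3.19 at basal and knockout dishes 3.75, 3.87, 3.92, 3.94 and 3.87. At 48 h wild-type dishes read 3.64, 3.68, 3.94, 3.90 and 3.91 and knockout dishes 3.82, 4.02, 4.12, 4.08 and 4.30. The basal groups were apart and the 48 h groups overlapped. The difference was 0.58 ± 0.10 at basal (SE, 1.50-fold, adjusted p = 1.32e-05), 0.31 at 24 h (adjusted p = 0.0172) and 0.26 at 48 h (adjusted p = 0.0492). The 24 h call ended without wild-type 24 h replicate 4 or knockout 24 h replicate 2 (0.26 and 0.27). The 48 h call ended without wild-type 48 h replicates 1, 2 or 4 or knockout 48 h replicates 2 to 5 (0.20 to 0.28).

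Pdia5, an isomerase with thioredoxin folds, read 0.47, 0.64, 0.91, 0.72 and 0.86 in wild-type basal dishes and 1.0, 1.19, 1.05, 1.21 and 1.36 in knockout basal dishes. At 24 h it read 0.82, 0.56, 0.68, 0.57 and 0.59 in the wild type and 1.06, 1.17, 1.02, 1.13 and 1.13 in the knockout. The genotypes did not overlap at either time. The difference was 0.44 at basal (adjusted p = 0.000171), 0.46 at 24 h (adjusted p = 0.00011) and 0.18 at 48 h, which did not pass. Pdia4 was higher by 0.21 (adjusted p = 0.00586) and P4hb, the gene of protein disulfide isomerase itself, by 0.08 (adjusted p = 0.0198) over the mean of the 3 times. With the mean over probe sets the Pdia4 difference was 0.08 and its call ended (adjusted p = 0.556).

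The ER-associated degradation machinery moves misfolded proteins out of the ER to the proteasome. Of its 7 members 1 was higher and 3 were lower over the mean of the 3 times (57.1%, beside 53.2% of all tested genes). Sel1l, the scaffold of the HRD1 ligase complex, was higher by 0.27 ± 0.06 (SE, adjusted p = 0.000226). At 48 h it read 0.57, 0.69, 0.53, 0.56 and 0.39 in wild-type and 1.22, 0.83, 0.71, 0.70 and 0.96 in knockout dishes, which did not overlap, and this call (0.34, adjusted p = 0.0133) ended without knockout 48 h replicate 1 (0.25) and with the mean over probe sets (0.11, adjusted p = 0.506). Syvn1, the ligase itself, differed by -0.11 and did not pass (adjusted p = 0.175). Wfs1, the ER membrane protein lost in Wolfram syndrome, was lower at basal by 0.57 (adjusted p = 0.0047) and by 0.25 over the mean of the 3 times (adjusted p = 0.0193). Wild-type basal dishes of Wfs1 read 2.61, 1.77, 1.62, 1.63 and 1.79 and knockout basal dishes 1.35, 1.25, 1.42, 1.54 and 1.0. The groups did not overlap, and without the high wild-type replicate 1 the basal difference was -0.39 (adjusted p = 0.0266).

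Edem1, a lectin that picks glycoproteins for degradation, and Derl2, a channel subunit, were lower by 0.15 (adjusted p = 0.0291) and 0.16 (adjusted p = 0.0114). In both genes a second probe set was called in the opposite direction, at 0.27 for Edem1 and 0.18 for Derl2, so that their direction rests on the choice of probe set. The mean over probe sets gave 0.06 for Edem1 and 0.01 for Derl2. At 48 h alone Edem1 was lower by 0.29 (adjusted p = 0.0308), which was lost on leaving out wild-type 48 h replicate 2 or knockout 48 h replicate 2, 3 or 5 (-0.27 to -0.25). Its call over the mean of the 3 times ended without wild-type basal replicate 3, knockout basal replicate 1 or 2 or knockout 48 h replicate 3 (-0.14 to -0.13). Herpud1 differed by 0.18 (adjusted p = 0.0601) and Derl1 by -0.03.

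Translocation members carry nascent proteins through the ER membrane and remove their signal peptides. Of 9 tested 1 was higher and 5 were lower over the mean of the 3 times (66.7%, beside 53.2% of all tested genes). Sec61b, the beta subunit of the translocation channel, was the only translocation member called at each time with median scaling. Wild-type dishes of Sec61b read 4.62, 4.70, 4.67, 4.82 and 4.84 at basal, 5.01, 4.66, 4.63, 4.88 and 4.80 at 24 h, and 4.75, 4.88, 4.71, 4.77 and 4.66 at 48 h. Knockout dishes read 4.52, 4.49, 4.60, 4.59 and 4.38 at basal, 4.62, 4.48, 4.53, 4.52 and 4.46 at 24 h, and 4.22, 4.34, 4.54, 4.41 and 4.46 at 48 h. The genotypes were apart at all 3 times, by narrow gaps at basal and at 24 h. The difference was -0.21 (adjusted p = 0.0156), -0.27 (adjusted p = 0.00238) and -0.36 (adjusted p = 8.87e-05), and at 48 h this was 1.28-fold lower. The basal call ended under quantile normalization (-0.13, adjusted p = 0.191) and 75th percentile scaling (-0.17, adjusted p = 0.085), the 24 h call under quantile normalization (-0.18, adjusted p = 0.0785), and both without scaling (-0.12 and -0.11).

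The channel's alpha subunit gene, Sec61a1, was lower by 0.13 over the mean of the 3 times (adjusted p = 0.00767) and by 0.19 at 24 h (adjusted p = 0.035). That 24 h call ended without wild-type 24 h replicate 1 or 5 or knockout 24 h replicates 1 to 3 (-0.19 to -0.12), and none of its 5 other probe sets passed. The signal peptidase subunit genes Spcs3 and Spcs2 were lower by 0.15 (adjusted p = 0.0262) and 0.11 (adjusted p = 0.0393). The Spcs3 call ended without knockout basal replicate 2 (-0.13), and the Spcs2 call without any 1 of 12 arrays (-0.11 to -0.09): wild-type basal replicates 3 and 4, 24 h replicates 2, 3 and 5 and 48 h replicates 3 and 5, and knockout basal replicates 1 and 2, 24 h replicate 1 and 48 h replicates 1 and 2. Subunits of the translocon-associated TRAP complex split, with Ssr4 lower by 0.10 (adjusted p = 0.0178), Ssr1 higher by 0.11 (adjusted p = 0.0183) and Ssr2 and Ssr3 at -0.04 and 0.0060. Ssr1 was also called at basal (0.18, adjusted p = 0.0433), a call that ended without wild-type basal replicate 1, 2 or 5 or any knockout basal replicate (0.13 to 0.19). Srp19, a protein of the signal recognition particle, differed by -0.04. Under quantile normalization and 75th percentile scaling the falls of Sec61a1, Spcs2, Spcs3 and Ssr4, and with them those of Dnajc3, Edem1 and Wfs1, no longer passed over the mean of the 3 times.

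The 4 members that serve exit from the ER all passed over the mean of the 3 times, 3 higher and 1 lower. Of all tested genes 53.2% passed in that comparison. Sec24d lies on the plus strand of chromosome 3, and wild-type dishes read 1.46, 1.64, 1.84, 1.98 and 2.04 at basal and 1.75, 1.70, 1.86, 1.88 and 1.92 at 48 h. Knockout dishes read 2.20, 2.23, 2.42, 2.34 and 2.58 at basal and 2.11, 2.20, 2.21, 2.34 and 2.28 at 48 h. The genotypes did not overlap at any of the 3 times. The difference was 0.56 ± 0.09 at basal (SE, 1.48-fold, adjusted p = 4.44e-06), 0.31 at 24 h (adjusted p = 0.00733) and 0.40 at 48 h (adjusted p = 0.000516).

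Lman1, the cargo receptor ERGIC-53, read 2.99, 3.22, 3.23, 2.96 and 3.13 in wild-type basal dishes and 3.49, 3.49, 3.45, 3.61 and 3.72 in knockout basal dishes. The basal and the 48 h groups were apart and the 24 h groups overlapped. The difference was 0.44 (adjusted p = 3.52e-05), 0.30 (adjusted p = 0.00372) and 0.38 (adjusted p = 0.000362). Both of its other tested probe sets were called in the same direction, at 0.41 and 0.58. Sec31a, of the outer COPII coat, was higher by 0.25 (adjusted p = 0.000339) and at 24 h by 0.33 (adjusted p = 0.00868). Sec23b, of the inner coat, was lower by 0.20 (adjusted p = 0.00216) and at basal by 0.29 (adjusted p = 0.0145), where the call ended without wild-type basal replicate 1 or knockout basal replicate 1 (-0.24 and -0.21). The summed signal of vascular and meningeal markers, whose collagens leave the ER in COPII carriers, was higher in the knockout beside these rises, and its part in them was not tested.

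**Figure D4:**
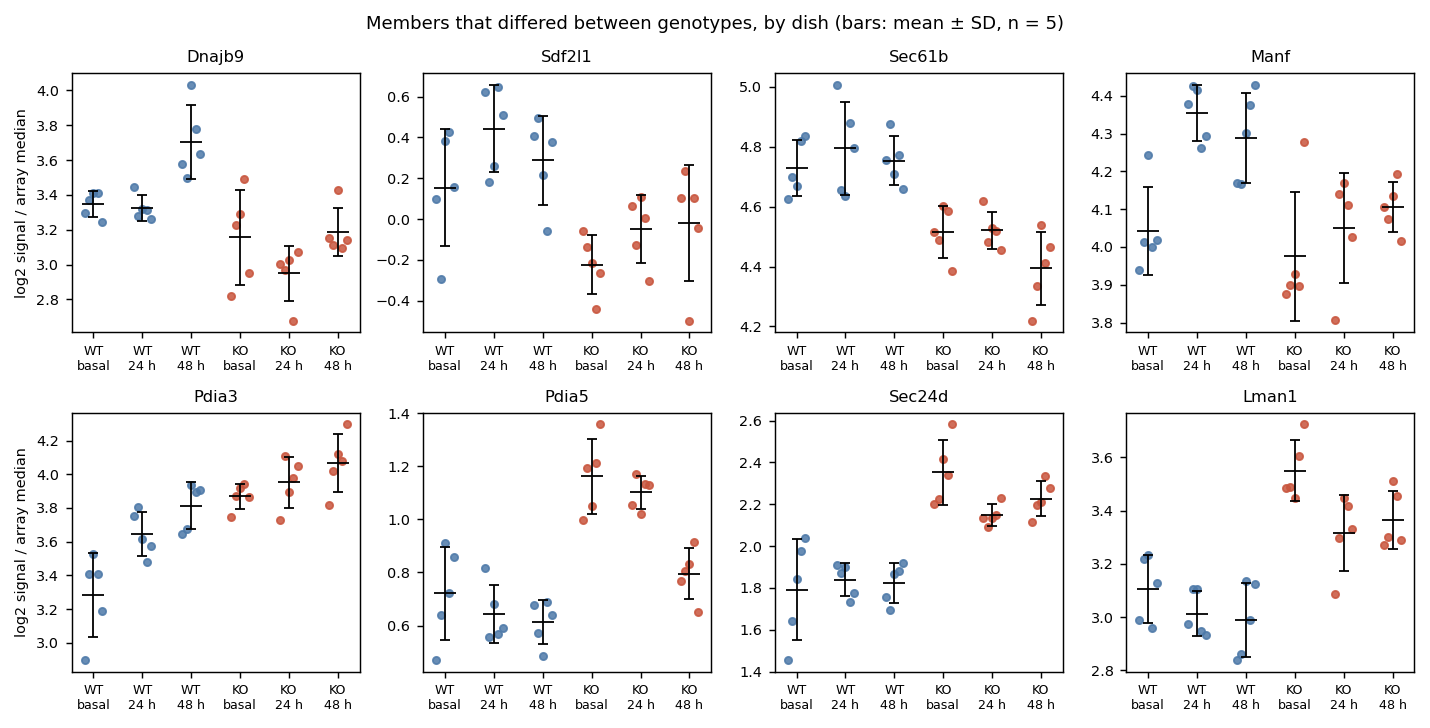
Signals by dish (y axis, log2 signal over array median) of members on which the genotype comparison turns, in the 6 groups of 5 dishes; bars are mean ± SD. Dnajb9 lies lower in the knockout at 24 h and 48 h and Sec61b at all 3 times, while Sec24d lies higher at all 3 times.

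Other probe sets bear on these calls where a gene has them. Of the 25 members called over the mean of the 3 times, 11 had another tested probe set. In 6 of these all the others had the same sign, and in 5 another was called in the same direction, namely Xbp1, Hsp90b1, Ssr1, Spcs2 and Lman1. For 14 members, among them Dnajb9, Sdf2l1, Sec61b, Pdia3, Pdia5 and Sec24d, the array held no second tested probe set. With the mean over probe sets, dim ones included, the calls of Dnajc3 (-0.03), Sec61a1 (-0.04) and Ssr4 (-0.15) over the mean of the 3 times also ended, as did that of Lman1 at 48 h (0.23, adjusted p = 0.0622).

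Set beside the promoter letters, the 11 members with an ERSE, ERSE-II or UPRE match were mostly not called. Over the mean of the 3 times, where 53.2% of all tested genes passed, 2 were higher (Hsp90b1 and Sec24d), 1 was lower (Dnajc3) and 8 did not pass, with a median of 0.02. Of the 19 tested members whose window held no match, 8 were higher, 9 were lower and 2 did not pass, with a median of 0.0060. The 9 members with no window in the table gave 1 higher and 4 lower. Dnajb9, Sdf2l1 and Sec61b, the members with the largest falls, had no match in the window.

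The response to BDNF was examined within each genotype. In the wild type 5 members rose at 24 h and none fell, beside 14.4% of all genes called (8.04% higher and 6.4% lower). At 48 h 11 rose and 1 fell, beside 36.2% (20.5% and 15.7%). In the knockout 1 rose and 2 fell at 24 h, beside 11.5% (5.96% and 5.55%), and 6 rose and 2 fell at 48 h, beside 28.9% (19.4% and 9.47%). The median change of the members was 0.09 at 24 h and 0.11 at 48 h in the wild type, against 0.0061 and 0.02 for all genes. In the knockout it was 0.02 and 0.06, against 0.0046 and 0.04. The comparisons at 24 h and 48 h share the basal dishes of their genotype. The calls that held in every alternative were Dnajb11 at 24 h and Pdia3 at 48 h in the wild type, and none of the 3 and 8 in the knockout.

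Markers of cell types moved with BDNF as well. In the wild type neuronal markers were higher for 4 of 11 at 24 h, and at 48 h 6 were higher and 1 was lower, with medians of 0.28 and 0.42. Their summed signal was 316 to 346 at 24 h and 311 to 373 at 48 h, against 296 to 335 in basal dishes. Progenitor markers were lower for 4 of 10 at 24 h and 5 at 48 h, vascular and meningeal markers for 2 and 4 of 8 with 1 higher at 48 h, and erythroid markers for 0 and 3 of 3. In the knockout neuronal markers were higher for 5 and lower for 1 of 11 at 24 h, and higher for 4 and lower for 1 at 48 h. Progenitor markers were lower there for 4 and 3 of 10, vascular and meningeal markers for 1 and 2 of 8 and erythroid markers for 0 and 3 of 3. The part of these cells in the members' changes was not tested.

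At 24 h in the wild type the risers were co-chaperones and partners of BiP, together with Pdia3 and Edem1. Dnajb11, which encodes the co-chaperone ERdj3, read 2.46, 2.71, 2.89, 2.75 and 2.87 at basal and 3.09, 3.19, 3.23, 3.13 and 3.42 at 24 h, with no overlap. It rose by 0.48 ± 0.10 (SE, 1.39-fold, limma, adjusted p = 0.00128). Its 48 h dishes read 2.76, 2.94, 3.19, 2.97 and 3.19, a rise of 0.27 (adjusted p = 0.0317). In the knockout Dnajb11 read 2.75, 2.86, 2.72, 3.04 and 3.15 at basal and 2.83, 3.50, 3.19, 3.21 and 3.16 at 24 h, and this did not pass. Manf, whose wild-type basal dishes read 3.94, 4.01, 4.24, 4.00 and 4.02, rose by 0.31 at 24 h (adjusted p = 0.0042) and by 0.24 at 48 h (adjusted p = 0.0115).

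Hyou1 rose by 0.41 in the wild type at 24 h (adjusted p = 0.0139). Its wild-type dishes read 3.03, 2.41, 2.81, 2.38 and 2.47 at basal and 2.84, 2.76, 3.08, 3.52 and 2.96 at 24 h, which overlapped. The call ended without wild-type 24 h replicate 4 (0.29, adjusted p = 0.0706), and the mean over probe sets of Hyou1 was -0.0061. Pdia3 rose by 0.36 at 24 h (adjusted p = 0.009) and Edem1 by 0.29 (adjusted p = 0.0459). The Edem1 call ended without wild-type basal replicate 1, 2 or 5 or wild-type 24 h replicates 2 to 5 (0.22 to 0.30).

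At 48 h in the wild type the rises reached both regulators, 4 chaperones and 3 translocation members. Pdia3 rose most, by 0.53 ± 0.10 (SE, 1.44-fold, adjusted p = 7.12e-05), and its groups were apart. Dnajb9 rose by 0.36 (adjusted p = 0.00593), with every 48 h dish above every basal dish. Ssr4 went from 3.45, 3.56, 3.56, 3.54 and 3.56 at basal to 3.74, 3.89, 3.86, 3.89 and 3.99, a rise of 0.34 (adjusted p = 5.25e-05). Atf6 rose by 0.30 (adjusted p = 0.0322), Hsp90b1 by 0.29 (adjusted p = 0.000331), Spcs2 by 0.27 (adjusted p = 0.00726) and Xbp1 by 0.21 (adjusted p = 0.00674). The 3 other probe sets of Xbp1 did not pass (0.12, 0.22 and -0.10). With the mean over probe sets the calls of Xbp1 (0.11, adjusted p = 0.111) and Ssr4 (0.31, adjusted p = 0.253) ended. Edem1 rose by 0.26 and Ssr2 by 0.18. P4hb fell by 0.24 (adjusted p = 6e-04).

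Several of the calls at 48 h in the wild type turned on single arrays. The Atf6 call ended without wild-type basal replicate 1 or 5 or 48 h replicate 3 (0.23 to 0.28). The Dnajb11 call ended without basal replicate 1 or 2 or 48 h replicate 3 or 5 (0.21 to 0.27). The Edem1 call ended without basal replicate 1, 2 or 5 or 48 h replicate 2, 3 or 5 (0.20 to 0.27). The Ssr2 call ended without basal replicate 1 or 4 or 48 h replicates 2 to 5 (0.11 to 0.19). The Gapdh 3'/5' ratio was lower at 48 h, and with that ratio as a covariate 2 members rose and 2 fell in place of 11 and 1. All genes called went from 36.2% to 19.8% in that fit. The ratio was 2.72 to 2.94 in wild-type basal dishes and 2.40 to 2.62 at 48 h, without overlap. The fit can therefore hardly separate the ratio from the 48 h of treatment and culture. The rises that no longer passed with the covariate were those of Atf6 (0.19), Dnajb11 (0.10), Dnajb9 (0.19), Edem1 (0.30), Hsp90b1 (0.18), Manf (0.11), Spcs2 (0.10), Ssr2 (0.08) and Xbp1 (0.17). With 48 h replicates 1 and 2 alone, a choice made after seeing the data, 13.7% of all genes passed. In that fit the rises of Xbp1 (0.06), Ssr2 (0.06), Dnajb11 (0.12), Spcs2 (0.12) and Manf (0.12) did not pass. Nor did those of Dnajb9 (0.19), Atf6 (0.23), Hsp90b1 (0.24) and Edem1 (0.30). Pdia3 kept its call in each of the 21 alternatives run.

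In the knockout at 48 h the members that rose were of translocation, exit and degradation. The Gapdh 3'/5' ratio was lower at 48 h here too, and with it as a covariate the split of 6 higher and 2 lower became 1 and 3. All genes called went from 28.9% to 13.3%. The rises of Wfs1 (0.45), Sec23b (0.28), Srp19 (0.19), Spcs3 (0.13) and Spcs2 (0.13) did not pass in that fit. Wfs1 rose by 0.53 ± 0.15 (SE, adjusted p = 0.00934), from 1.35, 1.25, 1.42, 1.54 and 1.0 to 1.75, 1.46, 1.76, 2.09 and 2.13, with overlap. Sec23b went from 2.28, 2.58, 2.58, 2.72 and 2.84 to 2.89, 2.84, 2.97, 2.96 and 3.13, a rise of 0.36 (adjusted p = 0.00303). Both genes started lower in the knockout than in the wild type and differed by 0.08 and -0.06 between genotypes at 48 h. Srp19 rose by 0.33 (adjusted p = 0.00911), Spcs3 by 0.29 (adjusted p = 0.0226), Spcs2 by 0.28 (adjusted p = 0.00657) and Ssr4 by 0.24 (adjusted p = 0.0028). With the mean over probe sets the calls of Spcs2 (0.13, adjusted p = 0.084) and Ssr4 (0.22, adjusted p = 0.461) ended. Pdia5 fell by 0.37 (adjusted p = 0.00165) and P4hb by 0.26 (adjusted p = 0.000364). None of the 10 members in the class of HSP70 and HSP90 chaperones and co-chaperones passed in the knockout at either time (limma). Of all genes 11.5% passed at 24 h and 28.9% at 48 h. At an unadjusted p under 0.05, 1 of the 10 was higher and 3 were lower at 24 h, and 1 was higher at 48 h. Of all genes 25.7% and 39.7% stood under that unadjusted p. The Spcs3 call ended without knockout basal replicate 2 or 48 h replicate 2 (0.23 and 0.26). With 48 h replicates 1 and 2 alone 16% of all genes passed. The rises of Wfs1 (0.29), Spcs3 (0.28), Sec23b (0.27), Ssr4 (0.20) and Spcs2 (0.16) did not pass there.

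At 24 h in the knockout Srp19 rose by 0.31 (adjusted p = 0.0294), Lman1 fell by 0.23 (adjusted p = 0.0445) and Canx, the gene of calnexin, fell by 0.18 (adjusted p = 0.0322). Each of these 3 calls depended on single dishes. The Srp19 call ended without knockout basal replicate 1, 2 or 4 or 24 h replicate 2, 3 or 5 (0.20 to 0.32). The Lman1 call ended without basal replicate 1, 2, 4 or 5 or 24 h replicate 1, 2 or 5 (-0.25 to -0.18). The Canx call ended without basal replicate 3 or 4 or 24 h replicate 1, 2, 4 or 5 (-0.18 to -0.16). The count of 3 was 0 without knockout basal replicate 4 or 24 h replicate 2 or 5, and 1 without basal replicate 1 or 2.

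The split of risers and fallers at 48 h also depended on the scaling. In the wild type 11 and 1 became 8 and 4 with quantile normalization, 7 and 4 with the 75th percentile and 31 and 0 without scaling. All genes called were 36.8%, 38.9% and 58.9%, and 42.8%, 40% and 97.9% of them rose. In the knockout 6 and 2 became 6 and 6, 5 and 7, and 23 and 0. There all genes called were 30.4%, 32% and 50.2%, and 47.6%, 41.5% and 98.8% of them rose. Without scaling the median change of all genes at 48 h was itself 0.34 in the wild type and 0.29 in the knockout. Without scaling the change of P4hb in the wild type at 48 h was 0.07, with the sign turned. At 24 h in the knockout the split of 1 and 2 became 3 and 4, 2 and 5, and 0 and 0, beside 14.9%, 14.6% and 2.66% of all genes called.

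**Figure D5:**
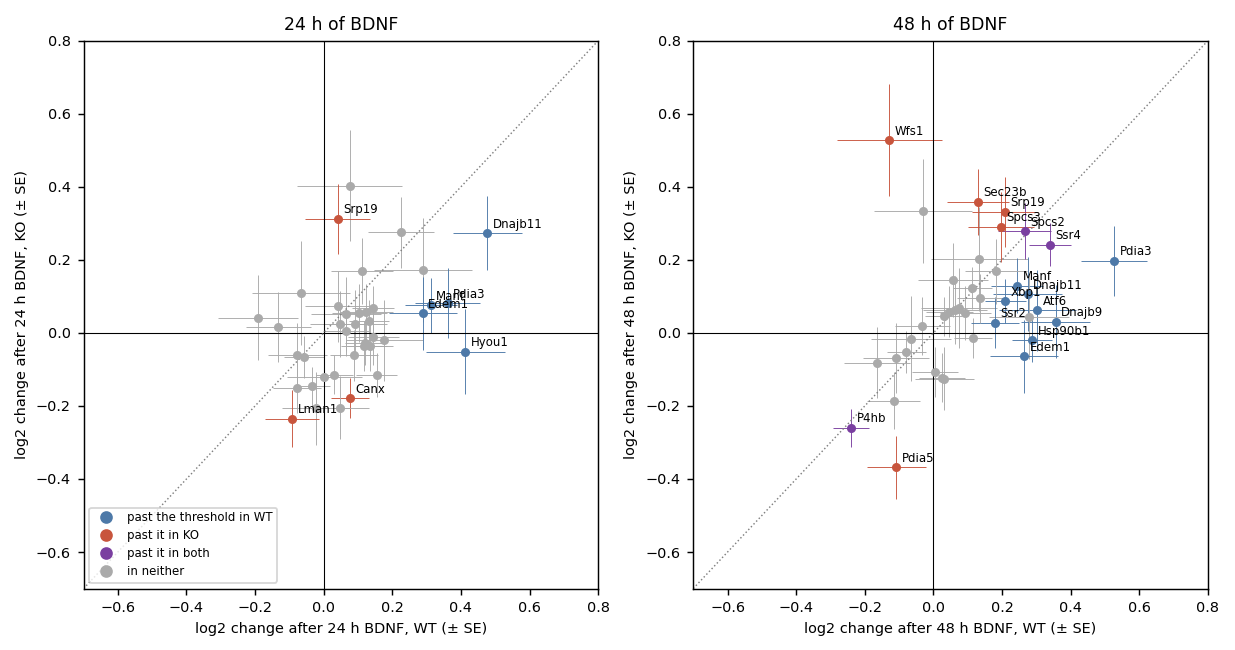
Change with BDNF against basal (log2) of the members in the wild type and in the knockout at 24 h and at 48 h. Pdia3 in the wild type lies at 0.36 and 0.53 and Dnajb11 at 0.48 and 0.27, while no member passed the test of the difference between genotypes.

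Whether the response differed between genotypes was tested as the difference of the 2 responses. No member passed at 24 h (limma, 0.0941% of all genes called) or at 48 h (0.134%). At an unadjusted p under 0.05 there were 6 of 39 members at each time, where 6.12% and 6.93% of all genes stood. The difference is the knockout's response minus that of the wild type. At 24 h it was negative for all 6. They were Hyou1 (-0.46), Pdia3 (-0.28), Hsp90b1 (-0.27), Canx (-0.26), Sec24d (-0.25) and Manf (-0.24), and the lowest adjusted p was 0.357, for Canx. Canx changed by 0.08 in the wild type, which did not pass, and fell by 0.18 in the knockout. At 48 h the difference was negative for Edem1 (-0.33), Pdia3 (-0.33), Dnajb9 (-0.33), Hsp90b1 (-0.31) and Pdia5 (-0.26) and positive for Wfs1 (0.66). The response of Pdia5 was -0.11 in the wild type, which did not pass, and -0.37 in the knockout, and that of Wfs1 was -0.13, which did not pass, and 0.53. Here the lowest adjusted p was 0.194, for Hsp90b1. These genes were named after their unadjusted values were seen.

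At 24 h the difference was negative for 30 of 39 members (76.9%) and for 51.1% of all genes. All 10 in the class of HSP70 and HSP90 chaperones and co-chaperones were among the 30. The median was -0.11 for the members and -0.0035 for all genes. Other genes of the ER leaned the same way: of 78 tested, 54 were below 0 with a median of -0.04. By list these were 8 of 10 of the oligosaccharyl transferase, 7 of 8 of the sensors and the ATF4 arm and 9 of 12 of translocation. The larger lists gave 17 of 26 for exit and retrieval and 13 of 22 for folding. At 48 h it was negative for 22 of 39 and for 43.6% of all genes, with medians of -0.02 and 0.02. The median SE of a member's difference was 0.12, so that single differences of the size of the median at 24 h were not detectable with 5 dishes per group. The basal dishes of a genotype enter both times.

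Genes of the ER outside the members were set beside them from 5 further lists of 88 genes, of which 78 were tested. Over the mean of the 3 times 14 were higher and 20 lower in the knockout (43.6%), beside 53.2% of all tested genes (13.4% higher and 39.8% lower). Of the other genes of exit and retrieval 5 of 26 were higher and 6 lower, with Kdelr3, a retrieval receptor, higher by 1.06 (adjusted p = 1.57e-15), Tmed5 by 0.37, Preb, the exchange factor that starts COPII assembly, lower by 0.50 and Tmed10 by 0.26. Of the other folding genes 3 of 22 were higher and 5 lower, with Fkbp7, a prolyl isomerase, higher by 1.08 (adjusted p = 2.84e-17), Txndc5 by 0.41, Txndc11 lower by 0.42 and Edem2 by 0.21. Of the other translocation genes 1 of 12 was higher and 4 lower, with the signal peptidase subunit Sec11c lower by 0.43, Sec63 by 0.21 and Srp14 by 0.19, and Srpr higher by 0.19.

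The oligosaccharyl transferase, which adds glycans to nascent proteins, had 3 of 10 genes higher and 3 lower. Magt1 was higher by 0.34, Stt3a by 0.26 and Rpn2 by 0.13, and Ostc was lower by 0.14. The PERK and ATF4 arm with the other sensors had 2 of 8 higher and 2 lower. Trib3, a target of that arm, was higher by 0.53 (adjusted p = 4.31e-09) and Mbtps1, a protease that cuts ATF6, by 0.21, while Ppp1r15a was lower by 0.28 and Eif2ak3, the gene of PERK, by 0.24. Atf4 and Ddit3 differed by 0.02 and -0.00081 and did not pass.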

How the data were processed

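The deposited intensity values are linear signals that the authors computed with MAS5, per the submitters' processing notes; its version is not given in the sources used here. A division by the array median and a filter on present calls, described for the series, are not visible in the values. Each array was therefore divided by its median, signals under 0.1 of the median were set to that floor, and log2 was taken. Of 22690 probe sets, 20393 carried 1 symbol, 691 several and 1606 none; names came from the platform annotation. The brightest probe set stood for each of 12394 genes, and the upper 60% by mean signal (7436) were tested. A model with 1 mean for each of 6 groups over 30 arrays was fitted with limma 3.58.1 in R 4.3.3 (eBayes with trend), with 10 two-sided comparisons and Benjamini-Hochberg adjustment over all tested genes at 0.05. "Rose", "fell", "higher" and "lower" of named genes mean past that threshold unless a value is said not to pass. No 2 arrays shared more than 0.00881% of their values. With 5 arrays in each group, their number sets the precision. The procedure was tested on simulated data.

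Named with full values were Xbp1, each member past the threshold in a genotype comparison, up to 8 per BDNF comparison and up to 4 genes per other ER list. Members and lists were chosen with earlier results of these data known. Alternatives were quantile normalization, 75th percentile scaling, no scaling, a floor of 0.01, no filter, the mean of probe sets, only the groups compared, the replicate number as a block, no trend, the Gapdh ratio as a covariate and leaving out each array. Chosen after seeing the data was the use of 48 h replicates 1 and 2 alone.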

Additional observations from a re-analysis of the deposited data

Results flagged for a closer look

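In each group of 5 dishes the highest and the lowest value of every member were compared with the rest. An outlying dish was found in 17 of 252 groups (6.75%), and chance alone gives about 1 in 20. Knockout 24 h replicate 1 was low for Pdia6 (4.74), Ssr3 (4.74), Spcs2 (4.23) and Herpud1 (1.63). Knockout basal replicate 5 was high for Calr (5.58), Sec61a1 (5.33) and Manf (4.28). Wild-type basal replicate 1 was low for P4hb (5.36) and Ssr4 (3.45) and high for Wfs1 (2.61). Dnajb9 was low in knockout 24 h replicate 4 (2.68) and high in knockout 48 h replicate 3 (3.43). Manf was high in wild-type basal replicate 3 (4.24), Edem1 in wild-type 48 h replicate 2 (1.79), Derl2 in wild-type 24 h replicate 5 (2.45) and Sec31a in wild-type 24 h replicate 4 (2.42). The Xbp1 probe set 1420011_s_at was low in wild-type 24 h replicate 1 (1.23), which lies on the side away from the knockout.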

How the results depend on the processing

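Counts of members called are given in this paragraph, first as reported. For knockout against wild type at basal (11) quantile normalization gave 17 and no scaling 6; at 24 h (12) no scaling gave 6; at 48 h (8) quantile normalization gave 13, no scaling 4 and 48 h replicates 1 and 2 alone 4; over the mean of the 3 times (25) no scaling gave 15. All genes called in these fits were 25% and 11.3% at basal and 11.8% at 24 h. At 48 h they were 21.3%, 11.8% and 12.3%, and over the mean of the 3 times 23%. For BDNF in the wild type at 24 h (5) no scaling gave 1 and the mean of probe sets and only the groups compared 3 each. All genes called were 3.67%, 12.3% and 12.7%. At 48 h (12) no scaling gave 31, the Gapdh covariate 4 and 48 h replicates 1 and 2 alone 3, beside 58.9%, 19.8% and 13.7% of all genes. For the knockout at 24 h (3) quantile normalization and the 75th percentile gave 7 each, no scaling 0, the replicate block 6, and no filter, the mean of probe sets, only the groups compared and no trend 1 each. In that order all genes called were 14.9%, 14.6%, 2.66%, 13.7%, 5.98%, 8.66%, 10.2% and 10.7%. At 48 h (8) quantile normalization and the 75th percentile gave 12, no scaling 23, the Gapdh covariate 4 and 48 h replicates 1 and 2 alone 3. In that order all genes called were 30.4%, 32%, 50.2%, 13.3% and 16%. The cause of these shifts was not tested, except that fewer arrays and fewer or more genes were tested by construction in some. The genotype difference in response gave 0 members in all alternatives run.

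Leaving out each array in turn gave 9 to 12 at basal, 9 to 13 at 24 h, 5 to 10 at 48 h and 22 to 26 over the mean of the 3 times between genotypes, with 5 at 48 h without knockout 48 h replicate 3. For BDNF it gave 4 to 6 and 8 to 15 in the wild type, and 0 to 4 and 7 to 10 in the knockout. The count of 2 Xbp1 probe sets called over the mean of the 3 times was 3 under quantile normalization and 2 in the other alternatives run. Values that reversed were P4hb in the wild type at 48 h without scaling (0.073), and with the mean of probe sets Derl2 (0.011) and Edem1 (0.062) between genotypes and Hyou1 in the wild type at 24 h (-0.0061). Of 90 called results of single members or Xbp1 probe sets, 30 held in every alternative that tested them and 59 were lost in at least 1. Same-numbered dishes of different groups correlated at -0.17 to 0.28 (75 pairs, median 0.03). Differently numbered dishes correlated at -0.42 to 0.27 (300 pairs, median -0.01). A correlation over 0.1 was seen in 23 and 50 of these pairs. Whether the numbers pair the dishes is not given in the labels and was not tested. Besides the count above, the replicate block ended the basal call of Sdf2l1 (-0.38, adjusted p = 0.0501). No run with only the groups compared exists for the mean of the 3 times, which uses all groups. Low signals near the array median, as for Sdf2l1, Atf6 and Sel1l, limit their precision.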
